A study of Arundo donax with 12 samples.

Results

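Cluster-14691.11833 was the unigene annotated as gibberellin 20 oxidase 2 in giant reed (*Arundo donax*), by similarity to the Arabidopsis protein of that name. It was 1 unigene out of the 126668 in the count table, taken by its identifier, and it was followed here through all 12 libraries. The plants belonged to a single ecotype, G10, and each pot was started from 1 stem node. Treated plants (Cd) stood in soil with cadmium nitrate at 4 mg/kg. Control plants (CK) received ammonium nitrate without cadmium, which the study meant to balance the nitrogen. Pots of both treatments were watered with tap water. Roots (R) and leaves (L) of 3 plants per treatment were sampled together after prolonged exposure, which made the groups Cd_R, CK_R, Cd_L and CK_L with 3 biological replicates each. Cadmium and the nitrogen supply changed together between Cd and CK plants and cannot be told apart. Whether the amounts of nitrogen matched was not tested.

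Gibberellins are plant hormones that promote stem elongation, germination and other growth. Gibberellin 20 oxidases are 2-oxoglutarate-dependent dioxygenases that carry out late oxidation steps in the synthesis of these hormones, and bioactive gibberellins usually repress their genes by feedback. In rice, loss of GA20ox2 is the cause of the semi-dwarf stature of the *sd1* varieties. Perception of the hormone leads to the destruction of the DELLA repressors of growth, for which an F-box protein named GID2 in rice and SLY1 in Arabidopsis is needed.

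The libraries held 22157170 to 26033492 expected counts (reads assigned to a unigene by RSEM, which need not be whole numbers). On log2 CPM the first principal component, with 76.4% of the variance, separated roots and leaves. On the second, with 6.42%, Cd_R replicate 1 scored 171 and CK_R replicate 3 scored 147, and the other root libraries -119 to -41.4, so values are also given without these 2 libraries. The 2 unigenes taken as leaf check, both with the GO term photosynthesis, went opposite ways. Cluster-14691.52923 followed the leaf label, with 3.45 to 5.58 CPM in Cd_R, 6.27 to 8.48 CPM in CK_R, 23.5 to 37.9 CPM in Cd_L and 70.4 to 121 CPM in CK_L. Cluster-14691.18292 went against it, with 4.44 to 13.4 CPM in Cd_R, 1.26 to 2.12 CPM in CK_R, 0.142 to 0.642 CPM in Cd_L and 0.112 to 0.340 CPM in CK_L, so the check of the leaves rests on 1 unigene. The 4 root check unigenes, nitrate and phosphate transporters, reached 65.1 to 226 CPM in Cd_R, 50.0 to 166 CPM in CK_R, 22.4 to 35.2 CPM in Cd_L and 35.9 to 105 CPM in CK_L, so the organs overlapped in the control plants. No check unigene was at 0 in any library, and both lists came from the tables the study made from these same libraries.

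The gibberellin 20 oxidase 2 unigene had counts in every library and passed the low-count filter in every comparison. In Cd_R it had 5.18, 21.6 and 17.0 CPM (counts per 1000000, after TMM scaling) in replicates 1, 2 and 3, from 152, 602 and 456 counts. In CK_R it had 4.42, 7.76 and 6.88 CPM, from 122, 194 and 207 counts. Cd_R replicates 2 and 3 were thus the highest libraries of the series, and Cd_R replicate 1 lay between the control roots. In Cd_L the unigene had 0.755, 2.90 and 2.35 CPM, from 16, 69 and 44 counts. In CK_L it had 2.31, 1.52 and 7.14 CPM, from 54, 27 and 126 counts. CK_L replicate 3 stood apart from the other leaf libraries and lay within the range of the control roots.

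**Figure D1:**
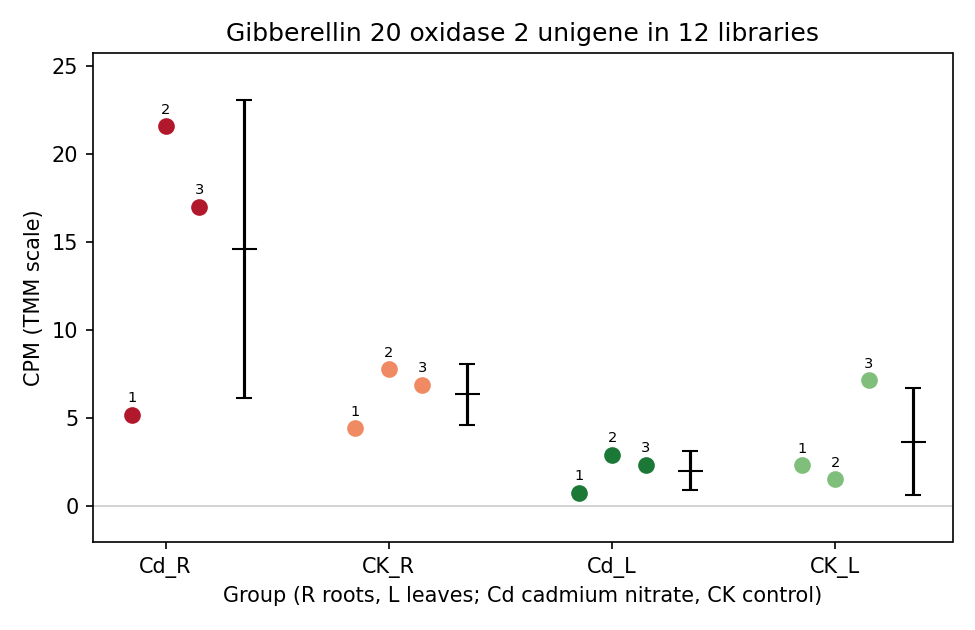
CPM of the gibberellin 20 oxidase 2 unigene (vertical axis) in the 3 libraries of Cd_R, CK_R, Cd_L and CK_L. Points are libraries labelled with their replicate number, and black bars give the mean ± SD of the 3 libraries. Cd_R replicate 1, at 5.18 CPM, sits among the control roots, and CK_L replicate 3, at 7.14 CPM, sits well above the other 2 control leaves.

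The mean level was 14.6 ± 8.46 CPM in Cd_R, 6.35 ± 1.73 CPM in CK_R, 2.00 ± 1.12 CPM in Cd_L and 3.66 ± 3.04 CPM in CK_L (SD, n = 3 each). The order from high to low was therefore Cd_R, CK_R, CK_L and Cd_L. No neighbours in that order differed beyond their spread, since the libraries of each neighbouring pair overlapped. Cd_R and Cd_L, the ends of the order, did not overlap: the lowest Cd_R library had 5.18 CPM and the highest Cd_L library 2.90 CPM. The lowest CK_R library, at 4.42 CPM, was also above every Cd_L library. In Cd_R vs Cd_L 59.6% of the unigenes tested had groups that did not overlap. The libraries came from whole organs, so a smaller number of cells with the transcript and less transcript per cell cannot be told apart.

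The replicates of this unigene varied more than its counts alone allow. The highest library exceeded the lowest 4.16-fold within Cd_R, 1.76-fold within CK_R, 3.84-fold within Cd_L and 4.70-fold within CK_L. The exact Poisson 95% interval of Cd_R replicate 1 was 4.39 to 6.07 CPM, far below the 21.6 CPM of Cd_R replicate 2. Even the smallest count, 16 in Cd_L replicate 1, had an interval of 9.15 to 26.0 counts, which does not reach the 44 and 69 counts of the other Cd_L libraries. These intervals cover counting error only. The biological coefficient of variation that edgeR estimated for the unigene was 0.561, against a median of 0.311 over 7907 unigenes within 0.5 log2 units of its mean level, and 12.4% of these had a higher one. Of the 4 groups, CK_R was the most even, with a coefficient of variation of 27.2%, and CK_L the most uneven, with 83.2%.

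The first comparison asked whether cadmium changed the unigene in roots. Its mean was higher in Cd_R than in CK_R, with a log2 fold change of 1.18 ± 0.53 (SE), or 2.27-fold, and a 95% interval of -0.08 to 2.44. The groups overlapped, because Cd_R replicate 1 was below 2 of the 3 control roots. The difference did not pass the test (unadjusted p = 0.0621 and Benjamini-Hochberg adjusted p = 0.999 over all unigenes, quasi-likelihood test of edgeR). An exact two-sided permutation test of the log2 CPM gave p = 0.300, where 3 libraries against 3 can reach no less than 0.10.

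No unigene was differentially expressed (a DEG, adjusted p up to 0.05 and a change of 1 or more log2 units either way) in Cd_R vs CK_R by edgeR, 0% of the 55317 tested. The unadjusted p was under 0.05 for 2555 of them, and DESeq2 called 185. DESeq2 gave the unigene 1.18 ± 0.59 (SE) and an adjusted p of 0.740, so it was outside the limits by both tools. Among all unigenes tested, 2.26% had a higher log2 fold change, and the median was -0.02. Libraries of the groups did not overlap for 9.78% of the unigenes, and the gibberellin 20 oxidase 2 unigene was not one of them.

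Without Cd_R replicate 1, the library that also scored high on the second component, Cd_R and CK_R no longer overlapped. The log2 fold change was then 1.59 ± 0.32 (SE), with an unadjusted p of 0.00252 and an adjusted p of 0.901 by edgeR. Without Cd_R replicate 1 and CK_R replicate 3 together it was 1.66 ± 0.36 (adjusted p = 0.610). Without Cd_R replicate 2, the highest library, it was 0.80 ± 0.57. In Cd_R replicate 1 the leaf-high Cluster-14691.52923 had 5.58 CPM, below every CK_R library. It was above Cd_R replicates 2 and 3, at 3.83 and 3.45 CPM. Cluster-14691.18292, which went against the leaf label, had 13.4 CPM in Cd_R replicate 1, the highest of all libraries. The root check sum was 226 CPM, the highest of the root libraries, and 105252 unigenes had a count, more than in any other library. The part of this library's composition in its low value of the unigene was not tested.

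In leaves the unigene pointed the other way. Its log2 fold change in Cd_L vs CK_L was -0.84 ± 0.68 (SE), with a 95% interval of -2.41 to 0.72, and the groups overlapped. It did not pass the test (unadjusted p = 0.248, adjusted p = 1.00, edgeR), and the exact permutation test gave p = 0.600. In this comparison 95.6% of the unigenes had a higher log2 fold change. By edgeR 0% of the 48194 unigenes tested were DEGs, with 2047 at an unadjusted p under 0.05 and 73 DEGs by DESeq2, and 9.33% had groups that did not overlap.

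The lower mean in Cd_L rested on CK_L replicate 3. Without this library the log2 fold change in Cd_L vs CK_L was 0.07 ± 0.59 (SE), since the remaining control leaves, at 2.31 and 1.52 CPM, lay inside the range of Cd_L. The root check sum of CK_L replicate 3 was 35.9 CPM, the lowest of the control leaves, where the others had 105 and 43.1 CPM. As these sums overlapped between the organs of control plants, the part of root material in the high value of CK_L replicate 3 was not tested.

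Averaged over both organs, the log2 fold change of Cd vs CK was 0.17 ± 0.47 (SE), with a 95% interval of -0.86 to 1.20 (adjusted p = 1.00, edgeR). Exchanging treatment labels within each organ gave a difference of 0.13 in log2 CPM and an exact permutation p of 0.795. By edgeR 0% of the 61242 unigenes were DEGs in this contrast, with 3529 at an unadjusted p under 0.05 and 89 DEGs by DESeq2. The estimates in roots and leaves had opposite signs, and the interaction of organ and treatment addressed that difference directly.

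The interaction, (Cd_R - CK_R) - (Cd_L - CK_L), was 2.06 ± 0.94 (SE) in log2 units, or 4.17-fold, with a 95% interval of -0.01 to 4.13. It did not pass the test (unadjusted p = 0.0510, adjusted p = 1.00, edgeR), and exchanging treatment labels within organs gave an exact permutation p of 0.12. The study listed this unigene because it was a DEG in Cd_R vs Cd_L and not in CK_R vs CK_L, on the same libraries, and such a choice favours a positive interaction. In the interaction 0% of the unigenes were DEGs by edgeR, 1941 had an unadjusted p under 0.05 and DESeq2 called 10, while 2.61% had a higher value than this unigene. The value rested in part on 1 library, as it was 1.14 ± 0.86 without CK_L replicate 3, and it was 2.45 ± 0.87 without Cd_R replicate 1.

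**Figure D2:**
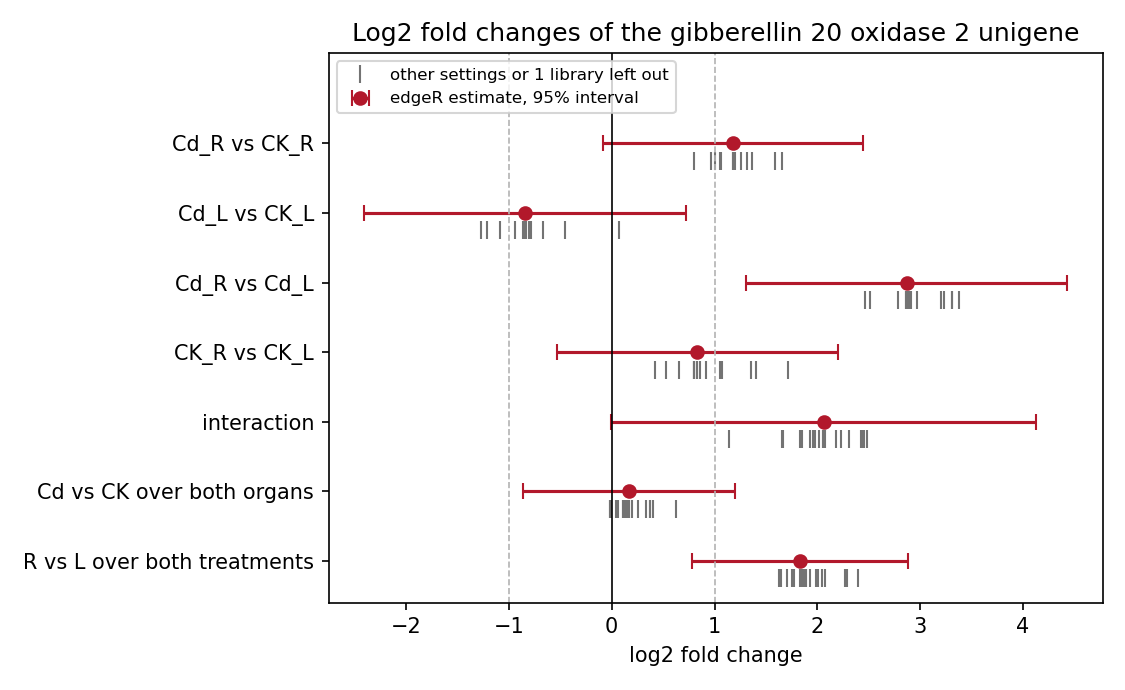
Log2 fold changes (horizontal axis) of the gibberellin 20 oxidase 2 unigene in 7 contrasts. Red points are the edgeR estimates with their 95% intervals, grey ticks the estimates with 1 processing choice changed or libraries left out, and dashed lines mark log2 fold changes of -1 and 1. The intervals of both cadmium contrasts and of the interaction include 0, and that of Cd_R vs Cd_L runs from 1.31 to 4.43.

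The difference between organs was the reason why the study listed the unigene, so these values are a description. In cadmium-treated plants it was higher in roots, with a log2 fold change of 2.87 ± 0.66 (SE) in Cd_R vs Cd_L, or 7.32-fold, and it was a DEG (adjusted p = 0.0108, edgeR). Every Cd_R library was above every Cd_L library. In this contrast 23.0% of the 54423 unigenes tested were DEGs with higher levels in roots and 17.9% with lower, and 59.6% had groups that did not overlap. A higher log2 fold change was found for 11.2% of the unigenes.

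In control plants the unigene was not a DEG. Its log2 fold change in CK_R vs CK_L was 0.83 ± 0.59 (SE), or 1.78-fold, with a 95% interval of -0.53 to 2.20 (adjusted p = 0.299, edgeR). The groups overlapped, because CK_L replicate 3, with 7.14 CPM, exceeded 2 of the 3 control roots. In this contrast 22.3% of the 54084 unigenes were DEGs with higher levels in roots and 16.8% with lower, 55.0% had groups that did not overlap, and 30.6% had a higher log2 fold change. With library totals in place of TMM the median over all unigenes moved to 0.59 in Cd_R vs Cd_L, with 18396 DEGs higher and 6700 lower against 12525 and 9718 with TMM. It moved to 0.55 in CK_R vs CK_L, with 16401 higher and 6444 lower against 12060 and 9112, and the unigene itself then had 3.38 in Cd_R vs Cd_L and 1.40 in CK_R vs CK_L.

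CK_L replicate 3 decided the call in control plants. Without it, the unigene was a DEG there as well, with a log2 fold change of 1.71 ± 0.45 (SE) and an adjusted p of 0.0329 (edgeR). Of 21 settings, the unmodified one included, the unigene was a DEG in Cd_R vs Cd_L and not in CK_R vs CK_L in 20. The exception was the one without CK_L replicate 3. Leaving out 1 library refitted only the contrast that held it, and the other contrast kept its unmodified result. The libraries that stood apart on the second component mattered less, as without Cd_R replicate 1 and CK_R replicate 3 the values were 3.31 ± 0.48 in Cd_R vs Cd_L and 0.80 ± 0.67 in CK_R vs CK_L. Averaged over both treatments, R vs L was 1.83 ± 0.48 (SE), or 3.55-fold, where 28.0% of the 61242 unigenes were DEGs with higher levels in roots.

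**Figure D3:**
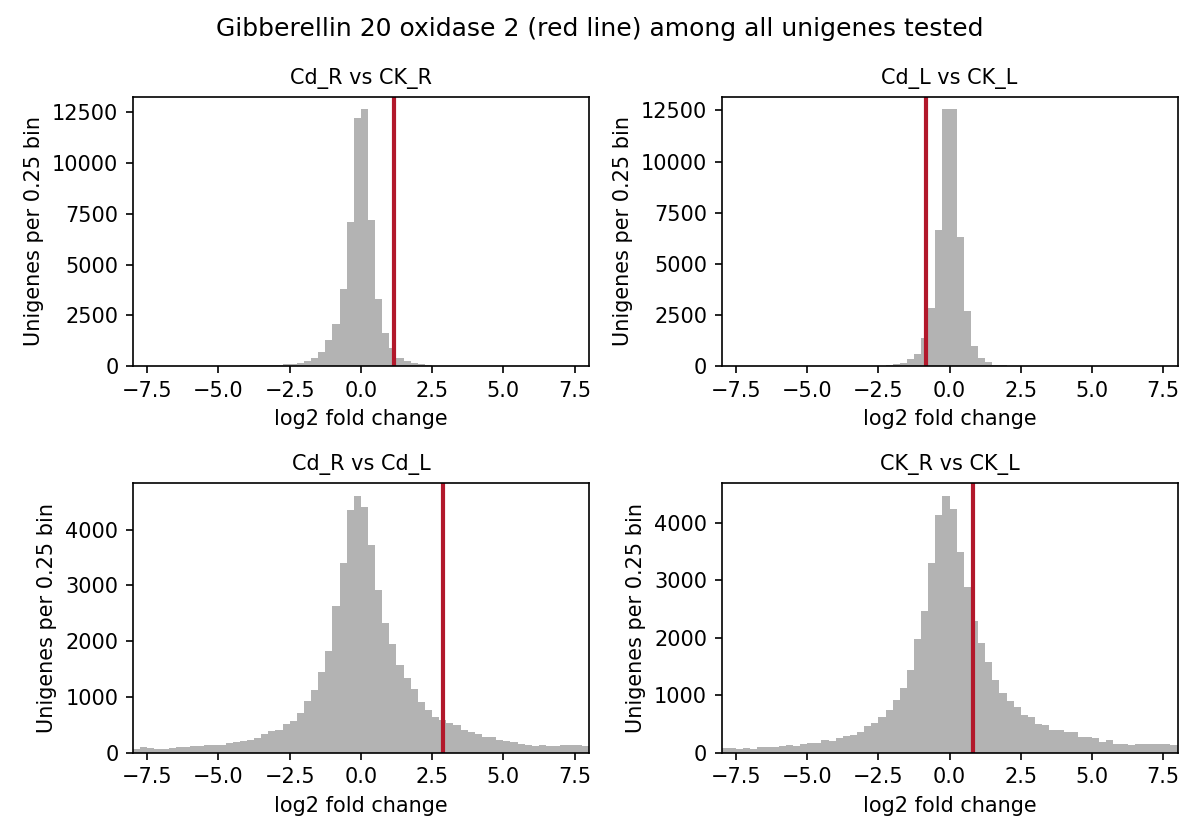
Distribution of log2 fold changes (horizontal axis) over all unigenes tested, with both cadmium contrasts above and both organ contrasts below. Bars count unigenes per bin, the red line marks the gibberellin 20 oxidase 2 unigene, and the outermost tails are not drawn. In Cd_R vs CK_R 2.26% of the unigenes lie to its right, and in Cd_R vs Cd_L 11.2%.

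The unigene was also measured without the library scale, as the ratio of its counts to those of Cluster-14691.35187, a cyclin dependent kinase C unigene that served the study as qRT-PCR reference. Log2 ratios were -2.08, -0.14 and -0.52 in Cd_R, -2.43, -1.66 and -1.80 in CK_R, -5.16, -3.35 and -3.82 in Cd_L, and -3.39, -4.37 and -2.17 in CK_L. Again Cd_R replicate 1 fell among the control roots, and CK_L replicate 3 was above 1 of them. The difference of group means was 1.05 in Cd_R vs CK_R (exact permutation p = 0.300) and -0.80 in Cd_L vs CK_L (exact permutation p = 0.5). It was 3.20 in Cd_R vs Cd_L and 1.35 in CK_R vs CK_L. The reference unigene itself had a log2 fold change of -0.36 in Cd_R vs Cd_L and -0.25 in CK_R vs CK_L, and it was a DEG in neither. Its Cd_R libraries, at 22.0 to 24.5 CPM, were all below its Cd_L libraries, at 27.8 to 33.6 CPM. Over both treatments its R vs L was -0.33 (adjusted p = 0.0319, edgeR), short of the limit of 1 log2 unit.

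The study's tables named 2 further unigenes of the gibberellin pathway. The first, Cluster-14691.29389, is annotated as the GID2/SLY component of the F-box complex that marks DELLA proteins for destruction. It had 2.73, 2.11 and 2.46 CPM in Cd_R, 3.53, 2.84 and 2.59 CPM in CK_R, 1.46, 0.968 and 1.09 CPM in Cd_L and 1.72, 1.63 and 1.30 CPM in CK_L. Roots were above leaves in both treatments without overlap, where 59.6% (Cd) and 55.0% (CK) of all unigenes had organs that did not overlap. Its replicates lay close together, unlike those of the oxidase. Its log2 fold change was 1.07 ± 0.31 (SE) in Cd_R vs Cd_L, a DEG, and 0.98 ± 0.35 in CK_R vs CK_L, which missed the limits (adjusted p = 0.0565, edgeR). Between treatments it was -0.30 in roots and -0.40 in leaves, a DEG in neither.

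The second, Cluster-14691.77995, is annotated as ELA, a cytochrome P450 that modifies gibberellins. It had 5.52, 4.29 and 2.28 CPM in Cd_R and 0.907, 6.32 and 3.39 CPM in CK_R. In leaves it had 0.897, 0.337 and 0.535 CPM in Cd_L and 0.0857, 1.18 and 0 CPM in CK_L, the last from 2, 21 and 0 counts. Roots were above leaves in Cd plants without overlap, where 59.6% of all unigenes had organs that did not overlap. In CK plants 1 leaf library exceeded 1 root library. The log2 fold change was 2.78 ± 0.50 (SE) in Cd_R vs Cd_L, a DEG, and 3.15 ± 1.22 in CK_R vs CK_L (adjusted p = 0.0748, edgeR). Both gibberellin unigenes were thus, like the oxidase, DEGs in Cd_R vs Cd_L and not in CK_R vs CK_L, although their log2 fold changes in these contrasts were close to each other. The study chose both on these same libraries. Its Cd_R vs Cd_L list left out DEGs of CK_R vs CK_L, so this pattern of calls is no independent evidence. With library totals in place of TMM both were DEGs in CK_R vs CK_L as well, and with a replicate block in the fit 1 of the 2 was a DEG in Cd_R vs Cd_L and 1 in CK_R vs CK_L. The interaction was 0.12 for Cluster-14691.29389 and -0.32 for Cluster-14691.77995, against 2.06 for the oxidase, and none was a DEG.

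**Figure D4:**
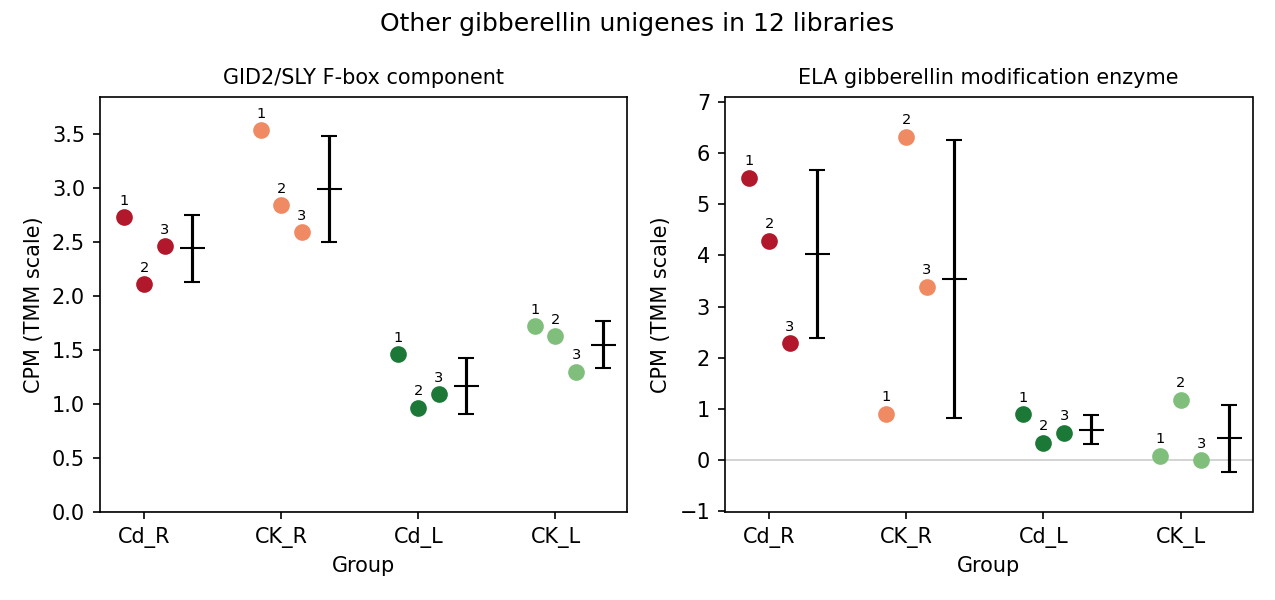
CPM (vertical axes) of the GID2/SLY F-box unigene and of the ELA unigene in the 3 libraries of Cd_R, CK_R, Cd_L and CK_L. Points are libraries with their replicate number and black bars the mean ± SD. Root means are above leaf means in both treatments for both unigenes.

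The study also named 12 unigenes of the synthesis of other hormones. In Cd_R vs Cd_L 11 of them were tested, of which 3 were DEGs with higher levels in roots and 7 with lower levels, against 23.0% and 17.9% of all unigenes. In CK_R vs CK_L 11 were tested, with 0 higher and 1 lower, against 22.3% and 16.8% of all unigenes. With library totals in place of TMM the counts in Cd_R vs Cd_L were 4 higher and 2 lower. Of all 54423 unigenes tested, 18396 were then higher and 6700 lower. The study chose these unigenes on the same libraries, and its Cd_R vs Cd_L list left out DEGs of CK_R vs CK_L. Their counts and directions in both organ contrasts are therefore no independent evidence. The highest of the DEGs was Cluster-14691.11710, an ACC oxidase of ethylene synthesis, at 3.29 ± 0.94 (SE), and the lowest Cluster-14691.43609, a dioxygenase of the neoxanthin cleavage type that serves abscisic acid synthesis, at -3.21 ± 0.90. The oxidase, at 2.87, was on the side of the 3 unigenes that were higher in roots. Between treatments 11 of the 12 were tested by edgeR in each organ, and 0 of these were DEGs. In roots 2 had an unadjusted p under 0.05 by edgeR and 1 was a DEG by DESeq2, with 0 and 0 in leaves.

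The likeness of other unigenes to the oxidase was measured by Pearson's r of log2 CPM over the 12 libraries, for 44495 unigenes with a mean of at least 1 CPM. These points share the 4 groups and the library scale, and r is a description. At 0.9 or above were 21 unigenes, and at -0.9 or below 23. The closest were Cluster-14691.43987 (r = 0.96) and Cluster-14691.70167 (r = 0.95), which carry no annotation in the sources used here. Cluster-14691.43987 had 24.5, 49.6 and 41.8 CPM in Cd_R, 25.4, 32.7 and 25.9 CPM in CK_R, 7.32, 18.5 and 19.6 CPM in Cd_L and 16.6, 17.0 and 36.0 CPM in CK_L. It shared with the oxidase the low Cd_R replicate 1, the low Cd_L replicate 1 and the high CK_L replicate 3. Taken as deviations from the 4 group means, r was 0.95 for it and 0.96 for Cluster-14691.70167. Both were picked for the highest r over these same values, so this is no further evidence that the spread was shared. Whether any of these clusters share reads with the oxidase was not tested.

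Of the 118 unigenes that the study annotated in its tables, 75 could be compared. The study drew these tables from the same libraries, in part as lists of DEGs in Cd_R vs Cd_L, where it also listed the oxidase. A high r within this pool is therefore no independent evidence. The closest was Cluster-14691.13007 (r = 0.88), an auxin transporter of the PILS family, followed by Cluster-14691.70969 (r = 0.87), a receptor of the growth peptide phytosulfokine. Next came Cluster-14691.66836 (r = 0.83), which the study annotated both as a pectin methylesterase and in the plant invertase/pectin methylesterase inhibitor superfamily. Pectin methylesterases act on cell wall pectin. Then followed Cluster-14691.10463 (r = 0.79), an EIN3/EIL transcription factor of ethylene signalling, and Cluster-14691.82632 (r = 0.78), a precursor of CEP signalling peptides. Taken as deviations from the 4 group means, r fell to 0.72, 0.68, 0.48, 0.51 and 0.42 in that order. The PILS unigene had 0.136, 5.45 and 18.2 CPM in Cd_R, 2.27, 2.48 and 0.731 CPM in CK_R, and at most 0.680 CPM in a leaf library, which was CK_L replicate 3. It therefore repeated the low Cd_R replicate 1 of the oxidase. The CEP precursor had 0.409, 12.4 and 4.55 CPM in Cd_R, 0.145, 0 and 1.49 CPM in CK_R and 0 counts in all 6 leaf libraries. It was at 0 in CK_R replicate 2, where the oxidase was highest of the control roots. Its r thus held the step between organs and no differences among leaf libraries, and Spearman's rho was 0.50. The oxidase was less alike to the other gibberellin unigenes, with r = 0.48 for Cluster-14691.29389 and 0.39 for Cluster-14691.77995.

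**Figure D5:**
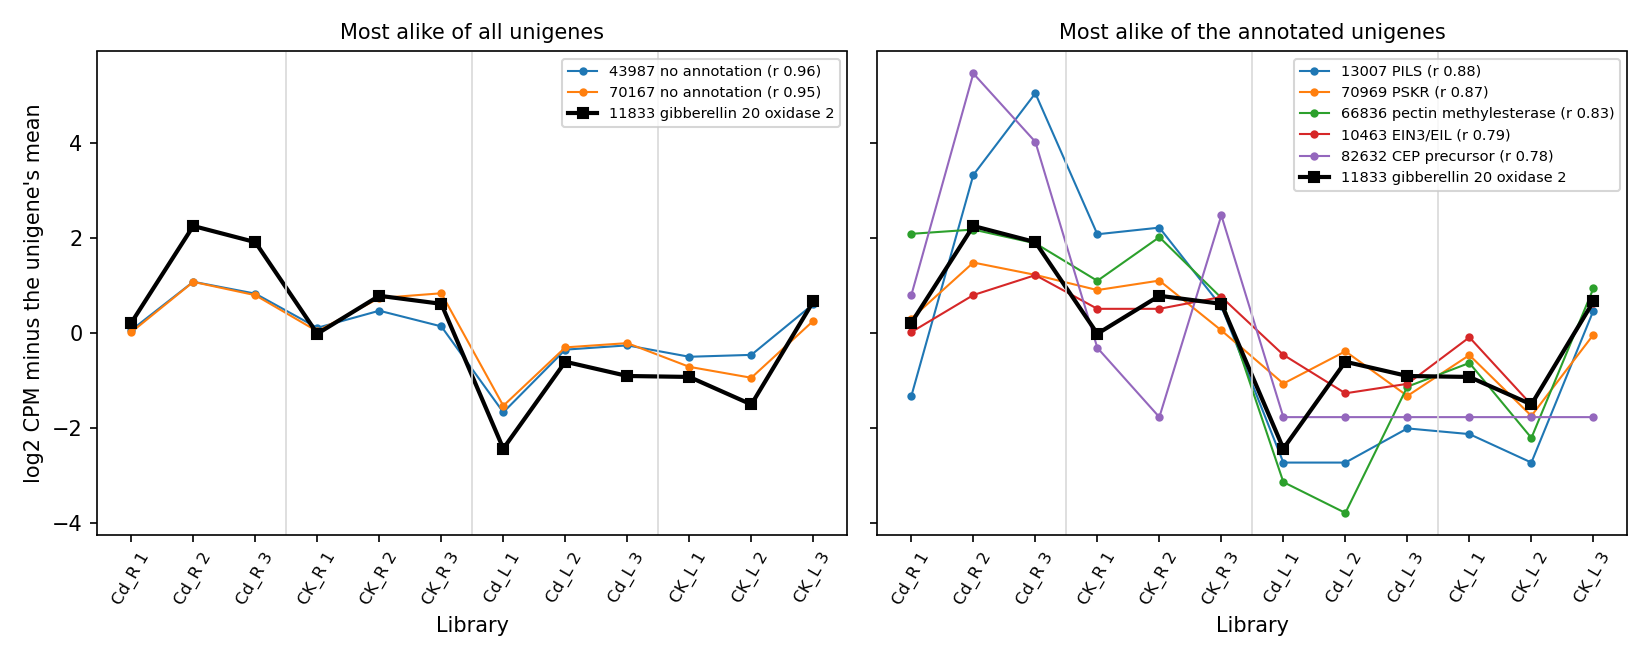
Log2 CPM minus the mean of each unigene (vertical axis) in the 12 libraries (horizontal axis) for the oxidase in black, beside the 2 unigenes most like it of all (left) and the 5 most like it among the annotated ones (right). The black line and the 2 lines on the left dip together at Cd_R replicate 1 and Cd_L replicate 1 and peak together at CK_L replicate 3.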

How the data were processed

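The authors sequenced oligo(dT)-selected RNA as paired Illumina reads, assembled them with Trinity without a reference genome, grouped the transcripts into unigenes with Corset and quantified each library with RSEM. The deposited table holds the resulting expected counts, with no scaling and no expression filter. Reads of near-identical copies can be split between unigenes, and unigene lengths were not used here, so levels are compared within a unigene only. Counts were rounded and analysed in R 4.3.3 with edgeR 4.0.16 (TMM, filterByExpr, glmQLFit and glmQLFTest) on the 6 libraries of each comparison, or on all 12 for the interaction and the averages. The SE is the absolute log2 fold change divided by the square root of F. Alternatives were DESeq2 1.42.0, other scalings and filters, the reference ratio, a replicate block and libraries left out. Principal components and likeness used log2 CPM with a prior count of 2. The named unigenes were the oxidase, the gibberellin unigenes, the qRT-PCR reference, the extreme DEGs among the hormone unigenes, and the 2 unigenes of all and 5 annotated ones with the highest r. The unigene, the lists and this rule were chosen with earlier results of these data known. Sequences were not analysed here.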

Additional observations from a re-analysis of the deposited data

How the results depend on the processing

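The cadmium contrasts and the interaction kept their side of the limits under every alternative run, and the signs of Cd_R vs CK_R and of the interaction held throughout. With 1 library left out in turn, the log2 fold change ranged between 0.80 and 1.59 for Cd_R vs CK_R, -1.27 and 0.07 for Cd_L vs CK_L (positive only without CK_L replicate 3, at 0.07), 2.46 and 3.31 in Cd_R vs Cd_L, 0.42 and 1.71 in CK_R vs CK_L, 1.14 and 2.45 in the interaction, -0.02 and 0.63 in Cd vs CK over both organs, and 1.63 and 2.29 in R vs L over both treatments. The average of Cd vs CK changed sign without CK_L replicate 2 (-0.01), Cd_L replicate 2 (-0.02) or Cd_R replicate 2 (-0.02). A group of 2 libraries was assumed to vary like the others in the fit. With library totals instead of TMM, the DEGs of other hormone synthesis were 2 lower in Cd_R vs Cd_L and 1 higher in CK_R vs CK_L. The gibberellin DEGs in CK_R vs CK_L were then 2, against 0 with TMM. Of all unigenes, 6700 of 54423 were lower in Cd_R vs Cd_L and 16401 of 54084 higher in CK_R vs CK_L with library totals. In CK_R vs CK_L DESeq2 called 1 gibberellin unigene higher, and it called 0 of the other hormone unigenes lower. Of all 114122 unigenes that DESeq2 tested there, it called 14465 higher and 10209 lower.

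The replicate numbers are not said to pair the samples. Deviations of same-numbered libraries correlated between -0.39 and 0.43, and 2 of 6, 0 of 6, 2 of 6 and 5 of 6 libraries correlated best with their own number in Cd_R and CK_R, Cd_L and CK_L, Cd_R and Cd_L, and CK_R and CK_L. With the replicate block the log2 fold change was 1.00 in Cd_R vs CK_R, -0.78 in Cd_L vs CK_L, 2.86 in Cd_R vs Cd_L and 1.07 in CK_R vs CK_L, the interaction was 1.96 and the averages 0.04 (Cd vs CK) and 1.85 (R vs L), and no call of the oxidase changed. Of the gibberellin unigenes, 1 was then higher in Cd_R vs Cd_L (2 without the block) and 1 in CK_R vs CK_L (0 without). Of the other hormone unigenes, 3 were higher and 6 lower in Cd_R vs Cd_L (3 and 7 without), and 1 higher and 2 lower in CK_R vs CK_L (0 and 1 without). The block left 20709 DEGs of 54423 unigenes in Cd_R vs Cd_L, 11476 higher and 9233 lower, against 22243 without it. In CK_R vs CK_L it left 21413 of 54084, 12088 higher and 9325 lower, against 21172 without it.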
